A study of Homo sapiens with 8 samples.

Results

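The olfactomedin-like genes OLFML2A, OLFML2B, OLFML3, OLFM1 and OLFM2 were followed in 4 human thyroid cancer cell lines given an siRNA against NR1D1 or an NR1D1 vector. They were taken by symbol, 5 of the 58884 gene identifiers in the tables, and all 5 were found in every table. They had been picked by name and selected on their treated over control ratios in these same libraries, so those ratios are given as a description and were not tested. 8505C and CAL-62 cells gave a library each after an siRNA against NR1D1 (siNR1D1, labelled NR1D1 knockdown) and a library each after a control siRNA (siControl, labelled WT). TPC-1 and FTC-133 cells gave a library each with an NR1D1-overexpressing vector (labelled NR1D1 overexpression) and a library each with the empty vector (labelled WT). Every group was 1 RNA-seq library of 1 cell line, so a difference within a line has no replicate check, and each approach was used in its own pair of lines. Levels are in TPM, a share of all transcripts that is a level per length, with every column brought to a sum of 1000000.

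Olfactomedin-domain proteins are mostly secreted glycoproteins that share a C-terminal beta-propeller, the olfactomedin domain, and act in the extracellular matrix or at the surface of neighbouring cells. OLFML2A and OLFML2B encode close relatives, photomedin-1 and photomedin-2, matrix proteins first described around mouse photoreceptors that bind glycosaminoglycans. OLFML3 encodes a secreted glycoprotein linked to blood vessel growth in mouse, and its frog relative binds chordin and a BMP1-type protease. OLFM1 and OLFM2 encode noelins, secreted proteins of neurons that take part in synaptic receptor complexes. The protein of NR1D1, REV-ERB alpha, is a nuclear receptor and a transcriptional repressor of the circadian clock.

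In GENCODE 29 on GRCh38, OLFML2A lies on the plus strand of chromosome 9 (124777158 to 124814885) and OLFM1 on the plus strand of the same chromosome (135075422 to 135121179). OLFML3 (113979391 to 114035572, plus strand) and OLFML2B (161983192 to 162023854, minus strand) lie on chromosome 1, and OLFM2 (9853718 to 9936552, minus strand) on chromosome 19. All 5 are protein-coding, and their exons shared 0 bases with the exons of any other annotated gene.

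The 250 bases before the RefSeq start (GRCh38.p14) are shown for OLFML2A and OLFML2B, which were higher in the treated library of all 4 lines, and for OLFML3, which was lower in that of FTC-133. The windows are chr9:124776883-124777132 on the plus strand, chr1:162023870-162024119 on the minus strand and chr1:113979224-113979473 on the plus strand. Capitals mark matches, on either strand, to any of 5 motifs: AGGTCA (the core bound by REV-ERB and ROR receptors), TGANTCA (AP-1), CATTCC (TEAD factors), GGGCGG (the GC box of Sp1-type factors) and CACGTG (the E-box of clock activators).
OLFML2A: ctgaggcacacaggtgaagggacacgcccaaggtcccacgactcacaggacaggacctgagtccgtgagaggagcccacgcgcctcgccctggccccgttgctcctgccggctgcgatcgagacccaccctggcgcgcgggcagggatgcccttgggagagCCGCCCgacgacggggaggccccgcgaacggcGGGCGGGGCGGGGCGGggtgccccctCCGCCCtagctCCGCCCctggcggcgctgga
OLFML2B: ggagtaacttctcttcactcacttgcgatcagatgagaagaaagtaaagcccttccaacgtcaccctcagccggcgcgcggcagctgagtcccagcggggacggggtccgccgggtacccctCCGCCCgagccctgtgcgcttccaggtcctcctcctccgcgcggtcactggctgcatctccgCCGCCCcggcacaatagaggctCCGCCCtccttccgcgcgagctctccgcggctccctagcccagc
OLFML3: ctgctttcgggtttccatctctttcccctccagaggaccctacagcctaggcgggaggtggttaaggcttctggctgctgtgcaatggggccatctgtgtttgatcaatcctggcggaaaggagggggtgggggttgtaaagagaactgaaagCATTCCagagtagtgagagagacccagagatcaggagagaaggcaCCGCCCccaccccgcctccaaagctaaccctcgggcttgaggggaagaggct
OLFML2A had 6 GGGCGG matches, of which 3 in a row share a base with the next, OLFML2B had 3 and OLFML3 had 1, and 42.6% of 35116 RefSeq promoter windows of this length held at least 1. The OLFML3 window also had 1 CATTCC match, a motif found in 11.9% of windows. The 3 windows held no match to AGGTCA, found in 12.1% of all windows, none to the AP-1 motif (6.57%) and none to the E-box (6.34%), on either strand. GC content was 75.2% for OLFML2A, 67.6% for OLFML2B and 57.6% for OLFML3, beside a median of 58% over all windows. RefSeq lists 2 windows for OLFML2A, and the other held 0 GGGCGG matches and 1 CATTCC match at a GC content of 50.8%. The windows of OLFM1 and OLFM2, 3 for each gene, are not shown. These are letter matches only.

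NR1D1 itself was lower in the siRNA libraries and higher in the vector libraries, the latter by less (ratio 1.10 in TPC-1 and 1.30 in FTC-133). It was 11.2 TPM after siNR1D1 and 18.2 TPM after siControl in 8505C, 10.1 and 22.0 TPM in CAL-62, 209 TPM with the NR1D1 vector and 190 TPM with the empty vector in TPC-1, and 137 and 105 TPM in FTC-133. Read numbers recovered from the values came to 12855586 to 23184775 per library. Mitochondrially encoded RNA took 67.8% of the TPM in CAL-62 siNR1D1 and 57.2% in CAL-62 siControl, against 15.7% to 29.3% in the other 6 libraries. The trimmed mean log2 ratio of genes at 5 TPM or more was -0.38 in CAL-62, so a typical gene there was lower by that amount, and lay between -0.06 and 0.05 in the other lines. Of the thyroid markers, the transcription factor gene PAX8 reached 53.7 to 330 TPM outside 8505C but only 0.50 TPM in both 8505C libraries, where NKX2-1 stood at 100 and 63.4 TPM. TG and SLC5A5, markers of the differentiated thyrocyte, stayed below 1 TPM in all 8 libraries. The 6 immune markers summed to at most 0.54 TPM outside TPC-1, and to 4.04 TPM with the NR1D1 vector and 7.67 TPM with the empty vector in TPC-1, nearly all of it from ITGAM. Fibroblast markers summed to 1618 and 2094 TPM in FTC-133 NR1D1 and empty vector cells and to 0.20 to 70.8 TPM in the other libraries. In FTC-133 most of that was COL1A2 (945 and 1570 TPM) and THY1 (607 and 492 TPM). LUM was 65.7 and 26.8 TPM there and DCN 0.99 and 4.42 TPM, with COL3A1 at most 0.11 TPM and PDGFRA at 0. Endothelial markers summed to 159 and 58.7 TPM in 8505C siNR1D1 and siControl, and to 24.6 and 3.21 TPM in FTC-133 NR1D1 and empty vector cells. In 8505C most of that was CDH5. Epithelial markers summed to 1654 and 1202.5 TPM in 8505C siNR1D1 and siControl and to 930 and 1479 TPM in CAL-62. With the NR1D1 and the empty vector they summed to 355 and 192 TPM in TPC-1 and to 344 and 99.3 TPM in FTC-133. Of the thyroid, epithelial, fibroblast, endothelial and immune lists limma passed 0 genes in either comparison. It also passed 0 of all 17595 genes tested in each, so that count says nothing about the markers alone. Their part in the member values was not tested. In bulk RNA, fewer cells of a type and less RNA per cell cannot be told apart.

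OLFML2A was higher in the treated library of every line, after siNR1D1 as well as with the NR1D1 vector. In the siRNA lines it was 72.6 TPM after siNR1D1 and 5.71 TPM after siControl in 8505C, and 2.95 and 0.43 TPM in CAL-62. In the vector lines it was 14.2 TPM with the NR1D1 vector and 3.20 TPM with the empty vector in TPC-1, and 66.9 and 23.6 TPM in FTC-133. The treated library was therefore the high one in each of the 4 pairs, but FTC-133 empty vector cells had more OLFML2A than CAL-62 cells after siNR1D1. The ratio was 12.7 in 8505C (95% interval 10.9 to 14.9), from 2527 and 167 reads. It was 6.84 in CAL-62 (4.28 to 11.5, from 117 and 21 reads), 4.45 in TPC-1 (3.66 to 5.44) and 2.84 in FTC-133 (2.60 to 3.10). The intervals of 8505C, TPC-1 and FTC-133 did not overlap one another, and that of CAL-62 overlapped those of 8505C and TPC-1. On log2(TPM + 1) the CAL-62 value was 1.47, and 2.34 with mitochondrially encoded genes left out. These are exact Clopper-Pearson intervals, which cover counting error only.

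OLFML2B, the closest relative of OLFML2A among the 5, showed the same direction in all lines. It was 12.6 TPM after siNR1D1 and 1.42 TPM after siControl in 8505C, from 221 and 21 reads, and 80.6 and 22.1 TPM in CAL-62. With the NR1D1 vector and the empty vector it was 63.6 and 16.2 TPM in TPC-1, and 113 and 30.4 TPM in FTC-133. In 3 of the lines the ratios lay close together at this scaling, at 3.65 in CAL-62 (3.31 to 4.03), 3.92 in TPC-1 (3.47 to 4.44) and 3.70 in FTC-133 (3.33 to 4.12), and these intervals overlapped one another. In 8505C it was 8.83 (5.64 to 14.6), above all of them. The closeness depends on the scaling, since the CAL-62 value of 1.82 on log2(TPM + 1) became 2.26 with mitochondrially encoded genes left out, while TPC-1 stood at 1.96 and FTC-133 at 1.83.

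The paired genes were not used to the same extent by each line. Control levels of OLFML2A ran from 0.43 TPM in CAL-62 through 3.20 in TPC-1 and 5.71 in 8505C to 23.6 TPM in FTC-133. Control levels of OLFML2B ran from 1.42 TPM in 8505C through 16.2 in TPC-1 and 22.1 in CAL-62 to 30.4 TPM in FTC-133. The counting intervals of neighbours in both orders did not overlap, with no replicate to give a spread, and the tables of the lines were normalized separately. With mitochondrially encoded genes left out the order of OLFML2A was the same, but for OLFML2B CAL-62 came highest, at 51.6 TPM against 36.8 TPM in FTC-133. After treatment OLFML2A was still the more abundant of the pair in 8505C (72.6 against 12.6 TPM) and OLFML2B in the other lines.

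**Figure D1:**
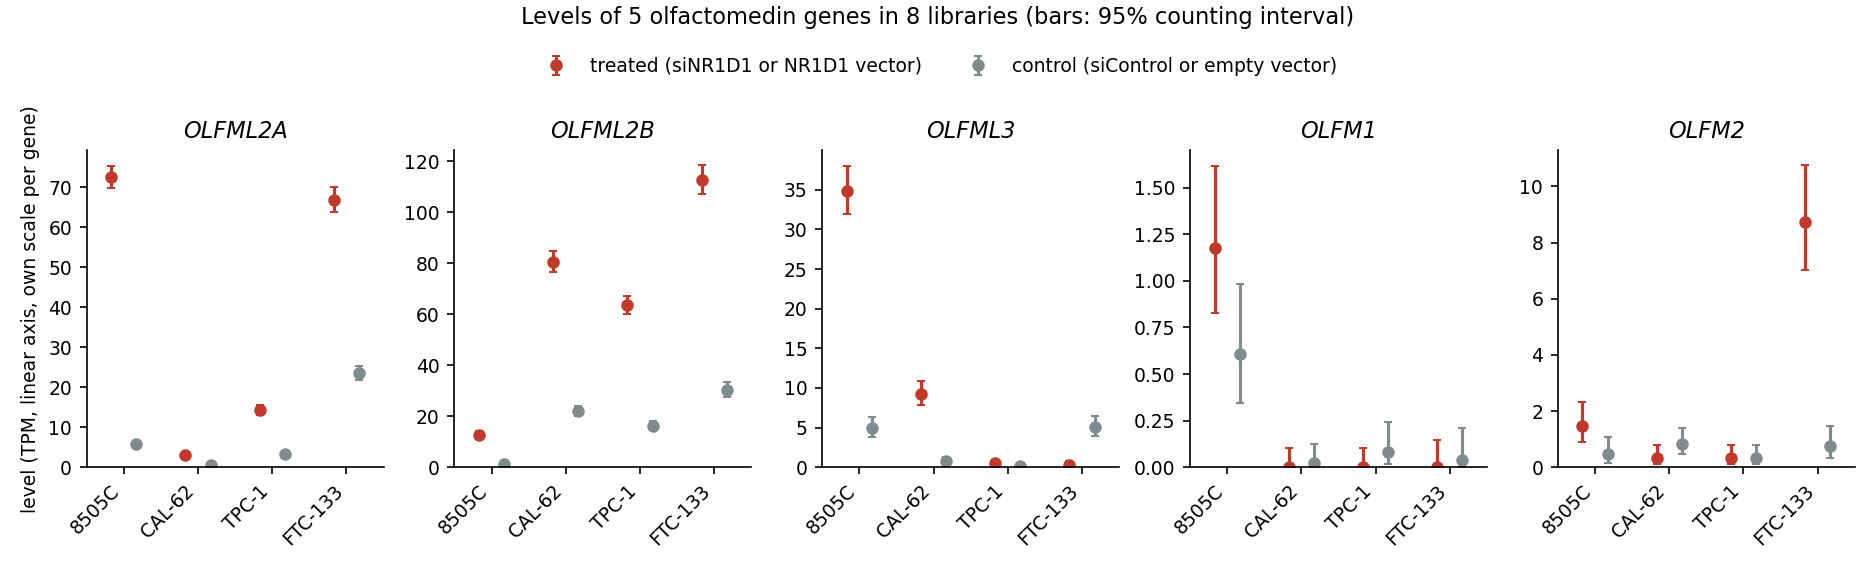
Levels in TPM (linear axes, 1 scale per gene) of the 5 genes in the 8 libraries, treated cells left of their control within each line; bars are 95% counting intervals of 1 library. OLFML2A and OLFML2B are higher in the treated library of all 4 lines, OLFML3 in 8505C and CAL-62 but lower in FTC-133 with the NR1D1 vector, and OLFM2 reaches 8.75 TPM in FTC-133 NR1D1 cells.

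OLFML3 was higher in the treated library of both siRNA lines and lower in that of 1 vector line, FTC-133. It was 34.9 TPM after siNR1D1 and 4.93 TPM after siControl in 8505C (506 and 60 reads), and 9.27 and 0.79 TPM in CAL-62 (153 and 16 reads). The ratios were 7.08 (5.41 to 9.41) and 11.7 (7.0 to 21.1). In FTC-133 it was 0.26 TPM with the NR1D1 vector and 5.08 TPM with the empty vector, from 3 and 62 reads, a ratio of 0.0509 (0.0102 to 0.156) or 19.6-fold lower. In TPC-1 it was 0.48 TPM with the NR1D1 vector and 0.18 TPM with the empty vector, from 8 and 3 reads, and the ratio of 2.66 had an interval of 0.64 to 15.6. A direction in TPC-1 was not detectable at this depth. FTC-133 and 8505C had like control levels of OLFML3, at 5.08 and 4.93 TPM with overlapping counting intervals. They lay far apart after their unlike treatments, at 0.26 TPM with the NR1D1 vector and 34.9 TPM after siNR1D1. Line and treatment cannot be told apart there.

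The noelin genes were near the limit of detection in most libraries. OLFM2 was 8.75 TPM with the NR1D1 vector and 0.74 TPM with the empty vector in FTC-133, from 90 and 8 reads, a ratio of 11.8 (5.76 to 28.2). In 8505C it was 1.48 TPM after siNR1D1 and 0.46 TPM after siControl, a ratio of 3.19 (1.15 to 10.9) that rested on 19 and 5 reads. In CAL-62 it was 0.34 TPM after siNR1D1 and 0.84 TPM after siControl (ratio 0.41, 0.12 to 1.19), and in TPC-1 both libraries were at 0.34 TPM with 5 reads each. OLFM2 thus stood out in 1 library only, FTC-133 NR1D1. OLFM1 was 1.18 TPM after siNR1D1 and 0.61 TPM after siControl in 8505C, from 37 and 16 reads, a ratio of 1.94 (1.05 to 3.74). The other 3 treated libraries held 0 reads of OLFM1, and their controls 1 to 3 reads, at or under the 3 reads that a count of 0 allows. That limit was 0.0838 TPM in CAL-62 siNR1D1, 0.0834 TPM in TPC-1 NR1D1 and 0.119 TPM in FTC-133 NR1D1 cells, so no OLFM1 ratio is given there.

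**Figure D2:**
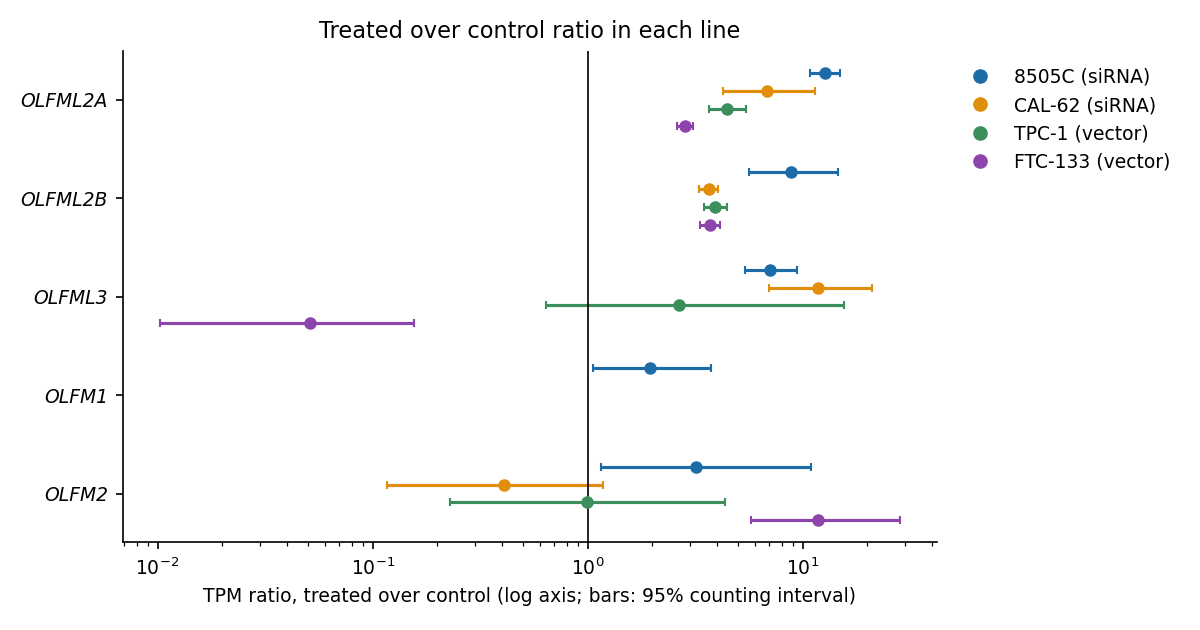
TPM ratio, treated over control, of each gene in each line (log axis), with 95% counting intervals of the pair of libraries; OLFM1 has no ratio outside 8505C. The 8 ratios of OLFML2A and OLFML2B lie between 2.84 and 12.7, while OLFML3 lies at 7.08 and 11.7 in the siRNA lines and at 0.0509 in FTC-133.

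The higher levels were thus not shared by all members. Among genes with a mean of at least 1 TPM in a line, the count of members at least 2-fold higher on log2(TPM + 1) was 3 of 3 in 8505C, 3 of 3 in CAL-62, 2 of 2 in TPC-1 and 3 of 4 in FTC-133, where OLFML3 was the 1 member at least 2-fold lower. The same call was made for 11.9%, 5.3%, 6.28% and 9.76% of all genes in those lines, and the call for lower for 5.86%, 10.7%, 5.25% and 6.91%. The members had been picked with these ratios known, so nothing is read from the difference. The filter left out OLFM1 in all 4 lines, OLFM2 in 8505C, CAL-62 and TPC-1, and OLFML3 in TPC-1. It let in OLFML2A and OLFML3 in CAL-62 and OLFM2 in FTC-133 only through their treated libraries (2.95, 9.27 and 8.75 TPM). Their controls were at 0.43, 0.79 and 0.74 TPM. OLFML3 in FTC-133 entered only through its control (5.08 against 0.26 TPM). These counts are thus partly set by the filter. The median log2 ratio over all 5 members, with those low genes in, was 2.49 in 8505C, 1.47 in CAL-62, 0.33 in TPC-1 and 1.47 in FTC-133, beside 0.05, -0.28, -0.02 and 0.05 over all genes. Of the members past the 2-fold line, the nearest to it were OLFML2A in CAL-62 and in FTC-133, each with a log2 ratio of 1.47. Of those short of it, the nearest was OLFM2 in 8505C with 0.76, at a mean of 0.97 TPM and so left out by the filter.

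Across all genes a 2-fold higher level in every line was rare. Of 11773 genes with a mean of at least 1 TPM in each of the 4 lines, 6 (0.051%) were at least 2-fold higher in all of them, and OLFML2A and OLFML2B were among the 6. OLFML2B had the highest smallest ratio of the 6, with log2 ratios of 2.49, 1.82, 1.91 and 1.85 in the line order of the opening, and OLFML2A had 3.45, 1.47, 1.86 and 1.47. The count can only grow when fewer lines are required, and was 18 without 8505C, 22 without CAL-62, 41 without TPC-1 and 24 without FTC-133. At least 2-fold lower in all 4 lines were 2 genes (0.017%). In the siRNA lines together 1.78% of 13742 genes were at least 2-fold higher in both, among them OLFML2A, OLFML2B and OLFML3. In the vector lines together 0.95% of 13473 genes were, among them OLFML2A and OLFML2B.

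**Figure D3:**
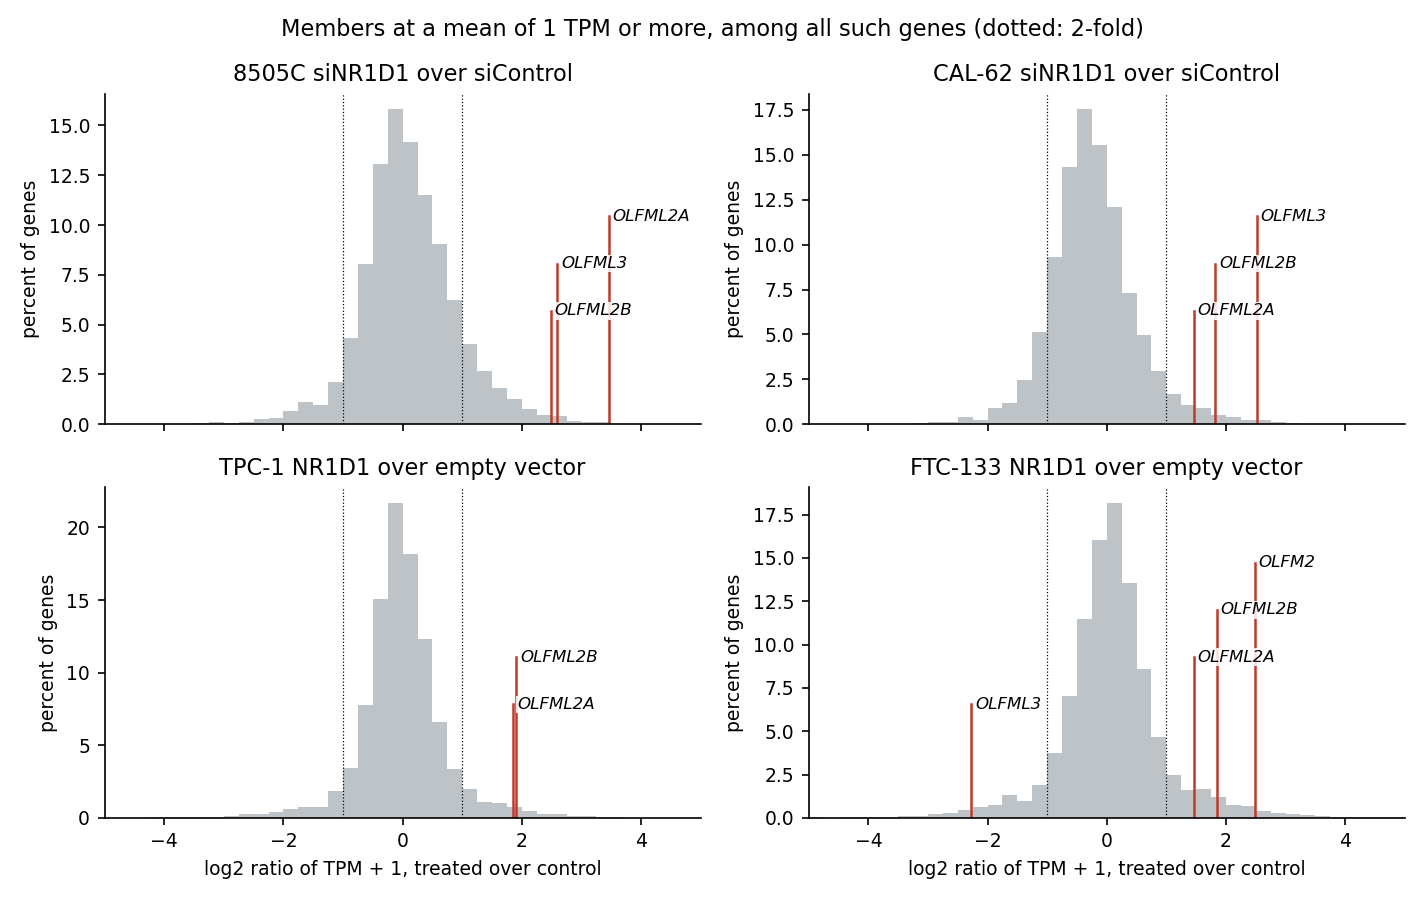
Share of genes, in percent, by log2 ratio of TPM + 1 (treated over control) in each line, for genes at a mean of 1 TPM or more, with members at that level as red lines; dotted lines mark 2-fold. OLFML2A and OLFML2B lie beyond the upper 2-fold line in each line, and OLFML3 lies beyond the upper line in 8505C and CAL-62 and beyond the lower line in FTC-133.

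The genes most like each member were sought by the distance between their 4 log2 ratios and those of the member, among 16261 genes. OLFML2B had rank 2 for OLFML2A (distance 1.10), behind the small RNA Y_RNA (0.91), and was followed by the small nucleolar RNA gene SNORD70 (1.14), by THBS1, which encodes the matrix protein thrombospondin-1 (1.51), and by MEGF6 (1.52). OLFML2A had rank 4 for OLFML2B, behind SNORD70 (0.48), Y_RNA (0.82) and COL5A1-AS1 (0.85), the antisense partner of the type V collagen gene COL5A1, and ahead of REEP2 (1.36). The nearest protein-coding gene to each of the pair was thus the other. Both had been picked with these same ratios known, so nothing is read from that nearness. OLFML3 lay nearest to the small RNA entries RNU6-237P, SCARNA21 and RNU6-1331P (distances 0.39, 1.02 and 1.13), then to FN1-DT (1.25). Its nearest protein-coding gene was COL13A1 (1.65), a transmembrane collagen gene with log2 ratios of 2.05, 2.69, -0.30 and -3.68. OLFML2A and OLFML2B stood at ranks 5513 and 7560 for OLFML3. The ratios of a line share its library depths, and 4 ratios carry few degrees of freedom, so these distances are a description. Genes entered this search by TPM alone, without the limit of 3 reads used for the members. As TPM is a level per length, a small RNA gene can enter on few reads, and its read numbers were not checked.

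The 8 other genes with an olfactomedin domain were mostly silent. limma passed 0 of the 2 tested after siRNA and 0 of the 2 with the vector, beside 0 of all 17595 genes in each. The latrophilin genes ADGRL1 and ADGRL2, adhesion receptors with an extracellular olfactomedin domain, were the expressed ones. ADGRL1 was 6.97 and 6.41 TPM after siNR1D1 and siControl in 8505C, 7.49 and 5.94 TPM in CAL-62, 27.0 and 32.7 TPM with the NR1D1 and the empty vector in TPC-1, and 5.07 and 5.96 TPM in FTC-133. ADGRL2 was 11.1 and 10.8 TPM, 3.86 and 2.85 TPM, 1.80 and 1.25 TPM, and 11.8 and 17.2 TPM in the same order. Neither differed by 2-fold in any line. OLFM4 reached 1.2 TPM in TPC-1 NR1D1 cells, against 0.12 TPM with the empty vector, and MYOC, the myocilin gene, reached 1.73 TPM in FTC-133 NR1D1 cells and was listed at 0 with the empty vector. OLFM3, OLFML1, GLDN and ADGRL3 stayed below 1 TPM in all 8 libraries.

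The genes of proteins known to bind olfactomedin-domain proteins had 0 members past the test. Over all 17595 genes with a mean of at least 1 TPM, limma called 0 after siRNA and 0 with the vector at a Benjamini-Hochberg adjusted p under 0.05 (0.0% each), and 2114 (12.0%) and 784 (4.46%) had an unadjusted p under 0.05. Of the 2114 after siRNA, 791 were higher and 1323 lower, against 1792 and 1112 with mitochondrially encoded genes left out and 1491 and 1030 after trimmed mean rescaling. At a mean of at least 5 TPM limma called 77 genes after siRNA and 7 with the vector. Of the 18 partner genes 13 were tested, and 0 passed in either comparison. At unadjusted p under 0.05 there were 2 higher after siRNA and 1 higher with the vector. Their median log2 change was 0.31 after siRNA and 0.40 with the vector, beside -0.07 and 0.00 over all genes.

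RTN4R, the Nogo receptor that OLFM1 binds, was 8.27 TPM after siNR1D1 and 0.59 TPM after siControl in 8505C and 2.84 and 0.80 TPM in CAL-62 (limma log2 change 1.82, SE 0.43, adjusted p = 0.277). With the vector it was 1.09 and 1.04 TPM in TPC-1 and 8.24 and 6.58 TPM in FTC-133. TENM4, a teneurin of the family that binds latrophilins, was 2.49 and 0.45 TPM in 8505C and 5.01 and 1.32 TPM in CAL-62 after siNR1D1 and siControl (log2 change 1.32, SE 0.31, limma adjusted p = 0.280). BMP1, the procollagen and chordin protease, was higher in the treated library of all 4 lines, at 104 and 66.8 TPM in 8505C, 25.5 and 15.0 in CAL-62, 15.4 and 13.8 in TPC-1, and 94.3 and 54.6 in FTC-133, and its siRNA log2 change was 0.68 (limma adjusted p = 0.417). BMP4, a ligand that OLFML3 binds, was close to its control in every line, with 26.8 and 23.5 TPM in 8505C as its highest values.

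Teneurins differed among themselves in FTC-133. TENM2 was 43.5 TPM with the NR1D1 vector and 0.61 TPM with the empty vector there, and 1.13 and 0.15 TPM in TPC-1 (vector log2 change 2.84, SE 0.85, limma adjusted p = 0.892). TENM1 was 25.8 and 2.06 TPM in FTC-133 and TENM3 25.4 and 20.4 TPM. NRCAM, a neural adhesion gene whose protein binds gliomedin, was 9.70 and 0.39 TPM there. The remaining partners above 1 TPM in a library, CHRD, TLL1, LINGO1, NGFR, NFASC, FLRT2 and FLRT3, had log2 ratios from -0.81 to 1.90 over the 4 lines, the highest for NGFR in 8505C, at 5.02 and 0.62 TPM.

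**Figure D4:**
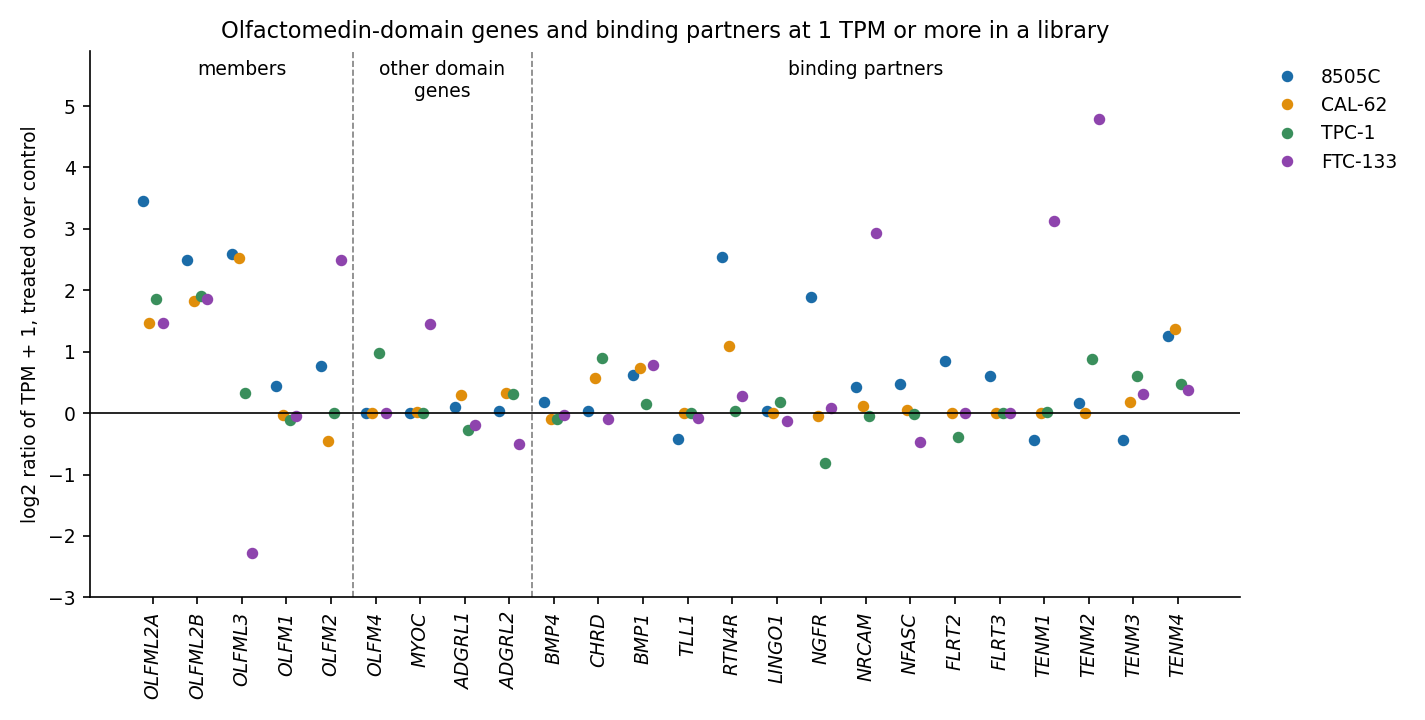
Log2 ratio of TPM + 1, treated over control, of the members, the other olfactomedin-domain genes and the binding partners that reach 1 TPM in at least 1 library; each dot is 1 line. OLFML2A, OLFML2B, BMP1, RTN4R, TENM2 and TENM4 are above 0 in all 4 lines, though RTN4R is at only 0.04 in TPC-1 and TENM2 at 0.008 in CAL-62. ADGRL1 and ADGRL2 lie between -0.50 and 0.33.

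Other matrix glycoproteins were set beside the members as genes of the same compartment. Of 26, 23 were tested and limma passed 0 after siRNA and 0 with the vector (smallest adjusted p of 0.271 and 0.613). At unadjusted p under 0.05, 6 were higher after siRNA, and 7 higher and 2 lower with the vector. Over all 17595 genes limma passed 0 in each comparison, and 12.0% and 4.46% had an unadjusted p under 0.05. Those were 791 higher and 1323 lower after siRNA, and 499 higher and 285 lower with the vector. Within lines 5 of 23, 6 of 18, 8 of 22 and 8 of 22 measured genes of the list were at least 2-fold higher, in the line order of the opening, beside 11.9%, 5.3%, 6.28% and 9.76% of all genes. After siRNA the largest mean log2 ratios were those of the fibrillin gene FBN1 (0.83 in 8505C and 2.55 in CAL-62), the matrilin gene MATN2 (0.98 and 2.40) and the fibulin gene FBLN2 (0.94 and 2.40). The smallest were those of the osteopontin gene SPP1 (-1.40 and 0.29), FBN2 (-0.88 and -0.22) and CCN1 (0.30 and -0.69). With the vector the largest were those of SPP1 (1.77 in TPC-1 and 4.23 in FTC-133), IGFBP7 (0.16 and 5.76) and FBLN2 (-0.27 and 4.91), and the smallest those of FBN2 (-1.77 and -0.47), TGFBI (-0.84 and -0.58) and ECM1 (0.80 and -1.84).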

How the data were processed

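Gene tables of 8 RNA-seq libraries were used, 1 per group, so groups were compared within a line or over the 2 lines of an approach. The deposited tables of 8505C and CAL-62 hold TPM, named so by the authors, and sum to 1000000 per column. Those of TPC-1 and FTC-133 carry the same name, but their deposited columns sum to 253330 to 261469, and value times exon length has the sum of FPKM, so they were read as deposited FPKM and rescaled to 1000000. The tools named are FastQC, MultiQC, Trimmomatic 0.38 and featureCounts 2.0.0, with build GRCh38, per the submitters' processing notes, and the RNA integrity number was at least 6.8 per the labels' protocols. For aligner, annotation, strandedness and separate cultures the entry is: not given in the sources used here.

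Read numbers were value times exon length (GENCODE 29) over the value of 1 read. Of nonzero values, 72.2% to 74.6% were whole within 0.02. All 40 values of the members were, for OLFML2A at a length of 6771 bases, the only one within 3000 bases of GENCODE's 6746 that made all 8 whole. Too many other values were not whole for a count model.

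Ratios are treated over control on log2(TPM + 1), which understates changes of low genes, and folds with an interval are on TPM. A 2-fold call needed a mean of at least 1 TPM in the line. limma 3.58.1 in R 4.3.3, with a trend, a term for cell line and 2 residual degrees of freedom, was fitted to all genes at a mean of at least 1 TPM and tried on simulated data with known changes. Its p-values rest only on the spread between lines, drawn for each gene towards a trend shared by all genes. They were two-sided and were used for genes that are not members. Other pseudocounts, filters, scalings and fits were tried. All member values, every domain or partner gene at 1 TPM or more in a library, 3 matrix genes per end and approach at a mean of 5 TPM or more, the 5 genes nearest to each member (small RNAs included) and markers were named by rule, and other partners are summarised. The members and lists were chosen with earlier results of these data known, and the motifs after the promoters were in hand. Of 58884 identifiers 58472 had a symbol in the name table and 58611 an exon length.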

Additional observations from a re-analysis of the deposited data

Results flagged for a closer look

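ADGRL1 and NFASC had log2 ratios of opposite sign under the 2 approaches, each in both lines. ADGRL1 had a mean log2 ratio of 0.20 in the siRNA lines and -0.23 in the vector lines, a difference of 0.43 (limma adjusted p of the difference = 0.838). NFASC, which encodes the neurofascin that gliomedin binds, had 0.26 and -0.24, a difference of 0.51 (limma adjusted p = 0.872), with at most 5 reads per library in CAL-62 and TPC-1. Neither difference passed, and approach and line cannot be told apart. No group had enough samples for a check of outlying libraries.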

How the results depend on the processing

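Over 68 recomputed member ratios (17 ratios under 4 settings each: pseudocount 0.1, mitochondrially encoded genes left out, trimmed mean rescaling, protein-coding genes only; 3 OLFM1 ratios have no interval and were left out), 59 moved by no more than their counting interval, 9 moved further and 0 changed sign after a call. All 9 were in CAL-62, where the mitochondrial share differed most, and all 9 were larger. In the order pseudocount 0.1, no mitochondrial genes and protein-coding genes only, OLFML2A was 2.52, 2.34 and 2.43 on the log2 scale there and OLFML3 was 3.40, 3.39 and 3.47. OLFML2B was 2.26 without mitochondrial genes, 2.19 after trimmed mean rescaling and 2.30 with protein-coding genes only. The counts of members at least 2-fold higher stayed within 1.5 times in each line, also at 1.5-fold and at a mean of 5 TPM. Settings chosen after seeing the data gave 4 to 9 genes at least 2-fold higher in all 4 lines, with OLFML2A and OLFML2B each time, and 18 to 41 with a line left out, where the count can only grow.

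limma called 77 genes after siRNA and 7 with the vector at a mean of at least 5 TPM, and 0 under the other settings that kept every line. That filter left 11174 genes in place of 17595, and the trend was then fitted without the low genes. Which of these changes raised the count was not tested. At a mean of at least 5 TPM, 0 of the other domain, partner and matrix genes passed. Without the replicate block, that is without the cell line term that pairs the libraries, limma called 0 in both comparisons. Depth limits OLFM1 outside 8505C, OLFM2 outside FTC-133 and OLFML3 in TPC-1.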

Other observations

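The other entries at least 2-fold higher in all 4 lines, singled out after their values were seen, were a collagen gene, its antisense partner and a pair of small RNA entries. In 8505C, then CAL-62, then TPC-1 and last FTC-133, the log2 ratios of COL5A1, a chain of the type V collagen of fine fibrils, were 1.25, 3.46, 1.39 and 1.29, and COL5A1-AS1 had 1.73, 1.60, 1.82 and 1.55. Reads of the antisense pair cannot be told apart unless counting used strand, which no source used here states. MIR3936 had 1.36, 2.87, 2.01 and 3.59, and RNY4P10 had 1.17, 1.64, 1.26 and 2.42. Read numbers of MIR3936 and RNY4P10 were not checked.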
